A study of Mus musculus with 2 samples.

Results

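The genes described here are 10 members of the BCL-2 family, which decides at the mitochondrion whether a cell lives or dies: Bcl2, Bcl2l1, Mcl1 and Bcl2a1a on the survival side, and Bax, Bak1, Bcl2l11, Bid, Bbc3 and Pmaip1 on the death side. They were taken by symbol, through the array probes annotated to one of these genes and to no other. By that rule 9 of the 10 genes were measured, with 22 of the 36547 probes, among 17501 named genes in all. The expression of Bax is not analysed here. Mouse lymphocytes were compared on 2 two-colour arrays, one with RNA of Th17-polarized and Th0 cells and one with RNA of Th1-polarized and Th0 cells. Th17 and Th1 cells are helper T cells driven in culture towards secretion of interleukin 17 or interferon gamma, and Th0 commonly stands for activated cells given no polarizing cytokines. Per the labels, the source of all 3 populations was a TRP-1 mouse, whose transgenic T cell receptor is directed at a melanocyte protein. The polarized RNA carried Cy5 and the Th0 RNA Cy3 on both arrays. The sources used here do not give the number of animals, their age, the cytokines used or the days in culture.

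Each comparison had 1 array, with no replicate and no dye swap. This number limits the precision: no difference below was tested, and none can be set against a spread between samples. The sole repeat measurement was the spread between different probes of one gene. Its pooled SD over 5886 genes with several probes was 0.49 on the Th17 and Th0 array, 0.51 on the Th1 and Th0 array and 0.52 for their difference, in log2 units. Values are log2 ratios as deposited. The order of the channels is unsettled. If the ratio runs as the titles do, negative values stand for lower expression in polarized than in Th0 cells, and if it runs the other way they stand for higher expression. The lineage genes lay on the negative side: Il17a at −5.37 and Il22 at −5.79 on the Th17 and Th0 array, Ifng at −2.02 and Tbx21 at −1.25 on the Th1 and Th0 array. The values below are therefore given as lying on the negative side, where these lineage genes lay, or on the positive side.

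The table holds ratios and no levels, so neither the presence of a gene nor that of a cell type could be read from it. Among 10 measured T cell markers, 8 lay below 0 on the Th17 and Th0 array (median −0.54) and 9 on the Th1 and Th0 array (median −0.61). Of all 17501 named genes, 9390 and 10040 did so on these arrays, with medians of −0.03 and −0.08. The side depends on the centring. Centring each array on its most repeated value subtracts −0.43 and −0.85, and the second is larger in size than the marker median on the Th1 and Th0 array. In RNA of whole cultures, a change in the number of cells of a type and a change in RNA per cell cannot be told apart, whichever way the ratio runs.

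The survival proteins BCL-2, BCL-XL (gene Bcl2l1), MCL-1 and A1 (gene Bcl2a1a) hold BAX and BAK in check. BAX and BAK (gene Bak1) are the effectors that open the outer mitochondrial membrane and release cytochrome c, which switches on caspases. BH3-only proteins, among them BIM (gene Bcl2l11), BID, PUMA (gene Bbc3) and NOXA (gene Pmaip1), sense stress, bind the survival proteins and so free the effectors. In T cells BCL-2 and MCL-1 keep resting cells alive, BCL-XL and A1 are induced by activation, and BIM ends the response when cytokines are withdrawn.

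Few of the measured family genes differed by 2-fold or more. On the Th17 and Th0 array 1 of 9 did, Pmaip1 on the negative side, beside 8.42% of all named genes (5.52% negative and 2.9% positive). On the Th1 and Th0 array 0 of 9 did, beside 10.2% of all genes (6.92% negative and 3.27% positive). In the difference of the arrays 1 of 9 did, Bcl2a1a on the negative side, beside 8.14% of all genes (3.61% negative and 4.53% positive). These shares of the family are near the background and say nothing particular about it. The median of the 9 genes was −0.09 on the Th17 and Th0 array, beside −0.03 over all genes. It was −0.18 on the Th1 and Th0 array, beside −0.08 over all genes, and 0.08 in the difference, beside 0.04.

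**Figure D1:**
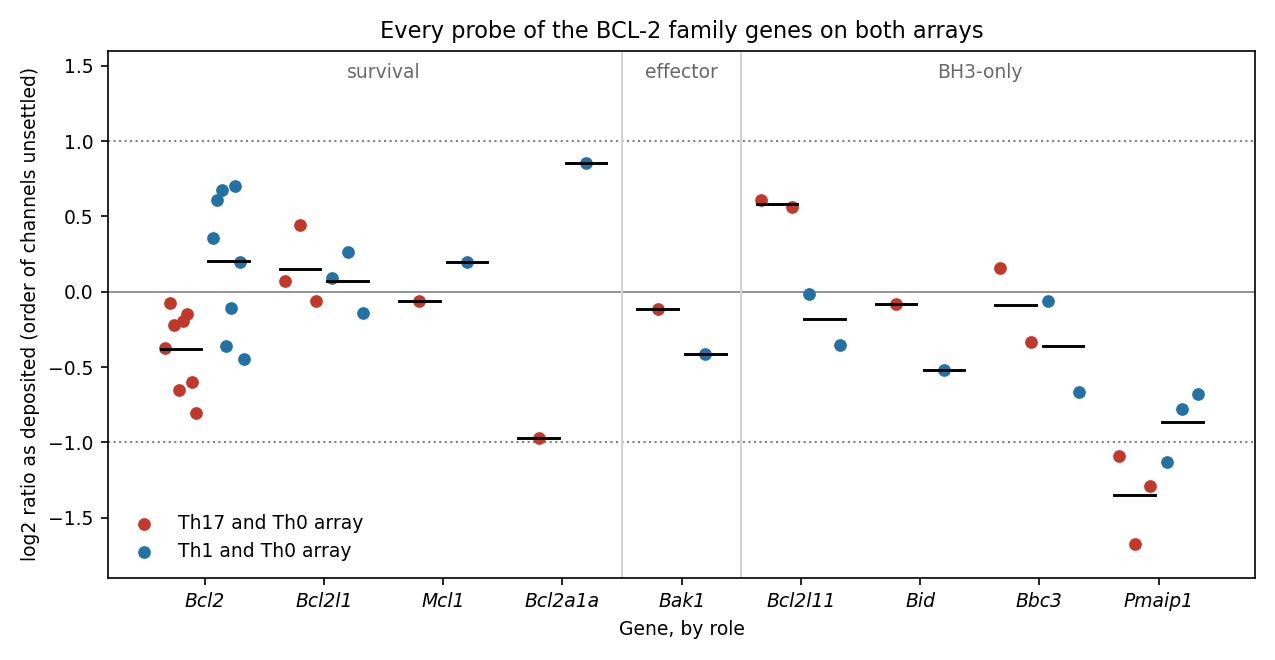
Deposited log2 ratio (vertical axis) of each of the 22 probes of 9 BCL-2 family genes, grouped by role along the horizontal axis, with the Th17 and Th0 array (red) left of the Th1 and Th0 array (blue). Points are probes, black bars the mean over probes, and dotted lines mark 2-fold. All 3 probes of Pmaip1 lie at or below −1.09 on the Th17 and Th0 array, and Bcl2a1a lies at −0.97 on the Th17 and Th0 array and at 0.86 on the Th1 and Th0 array.

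The gene whose arrays lay furthest apart was Bcl2a1a, which encodes A1, a survival protein of activated lymphocytes and of myeloid cells. Its 1 probe lay at −0.97 (1.96-fold) on the Th17 and Th0 array and at 0.86 (1.81-fold) on the Th1 and Th0 array. It was thus on opposite sides of the arrays, just short of 2-fold on each. The difference, Th17 minus Th1, was −1.83 (3.56-fold), and 1.09% of all named genes had a lower one. Bcl2a1a kept these sides under all 3 other centrings of the arrays, with a difference between −2.25 and −1.55.

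A1 is encoded in the mouse by a cluster of near copies, so the other probes of this cluster bear on the value. A probe annotated to Bcl2a1c alone lay at −0.96 on the Th17 and Th0 array and at 0.85 on the Th1 and Th0 array. A probe shared by Bcl2a1b and Bcl2a1a lay at −0.95 and 0.80 on these arrays, and one shared by Bcl2a1d, Bcl2a1b and Bcl2a1a at −0.92 and 0.91. All 4 probes of the cluster gave the same picture, with an SD over probes of 0.04 in the difference. The probes cannot be taken as 4 separate genes, since transcripts of near copies may bind each other's probes.

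How alike the copies are can be seen from their promoters, shown for the copies that have a probe annotated to them alone. The sequences are from RefSeq (GRCm38.p6), 250 bases before to 50 after the annotated start, in lower case. Capitals in the Bcl2a1c line mark bases that differ from Bcl2a1a where the windows overlap. The annotated starts differ, so the windows are offset.
Bcl2a1a, chr9:88956670-88956969, plus strand: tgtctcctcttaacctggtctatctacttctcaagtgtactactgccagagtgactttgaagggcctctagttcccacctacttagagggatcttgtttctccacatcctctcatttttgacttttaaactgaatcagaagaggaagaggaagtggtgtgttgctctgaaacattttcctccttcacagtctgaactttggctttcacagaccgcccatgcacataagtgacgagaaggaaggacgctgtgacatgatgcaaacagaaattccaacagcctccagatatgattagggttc
Bcl2a1c, chr9:114329885-114330184, plus strand: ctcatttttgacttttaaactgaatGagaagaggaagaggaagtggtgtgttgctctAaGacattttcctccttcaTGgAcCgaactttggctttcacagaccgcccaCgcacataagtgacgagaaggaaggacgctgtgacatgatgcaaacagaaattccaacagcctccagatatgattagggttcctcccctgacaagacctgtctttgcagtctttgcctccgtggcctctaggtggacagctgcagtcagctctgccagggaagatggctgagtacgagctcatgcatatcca
Over the 190 aligned bases Bcl2a1c was identical to Bcl2a1a at 182, or 95.8%. Bcl2a1b was 99.2% identical over 256 aligned bases and Bcl2a1d 96.0% over 300 aligned positions, 6 of them gaps.

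Because A1 is also made by myeloid cells and mast cells, the markers of those cells belong beside it. Mast cell and basophil markers had a median of 1.04 on the Th17 and Th0 array (5 of 9 at least 2-fold positive, range −0.05 to 2.31) and of 2.43 on the Th1 and Th0 array (9 of 9, range 1.52 to 3.31). Their median difference was −1.71. Myeloid markers had a median of 0.56 on the Th17 and Th0 array (6 of 15 at least 2-fold positive and 1 negative, range −2.04 to 2.14). On the Th1 and Th0 array it was 1.79 (12 of 15 positive, range 0.03 to 2.98), with a median difference of −1.21. Of all named genes, 2.9% were at least 2-fold positive on the Th17 and Th0 array and 3.27% on the Th1 and Th0 array. By median, both marker lists lay on the same side as Bcl2a1a on the Th1 and Th0 array and in the difference. On the Th17 and Th0 array their medians lay on the other side, but the myeloid list was mixed there, with 9 markers above 0 and 6 below. All 15 myeloid markers lay above 0 on the Th1 and Th0 array, so those 6 had the same sides as Bcl2a1a. Of the mast cell and basophil markers, 8 lay above 0 and 1 below on the Th17 and Th0 array. The part of either list in the Bcl2a1a values was not tested.

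Bcl2, the founding survival gene, was read by 8 probes. On the Th17 and Th0 array they lay between −0.80 and −0.07, all 8 on the negative side, with a mean of −0.38 ± 0.27 (SD over probes). On the Th1 and Th0 array they lay between −0.45 and 0.70, 5 of them on the positive and 3 on the negative side, with a mean of 0.20 ± 0.46. The probes thus disagreed on the Th1 and Th0 array by more than the mean itself, and centring on control genes turned that mean to −0.05.

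Within each probe, however, the Th17 and Th0 value was below the Th1 and Th0 value in 8 of 8 cases. The mean difference was −0.59 ± 0.30 (1.5-fold), it stayed between −1.01 and −0.31 under the 3 other centrings, and 9.27% of all genes had a lower one. The 6 probes annotated to the transcript NM_009741 alone had a median difference of −0.76. The 2 whose annotation holds NM_177410, the other Bcl2 transcript, had differences of −0.09 and −0.36. Of those 6 probes, 1 lay at −0.36 on the Th1 and Th0 array, on the same side as the other 2, so the annotation did not separate the probes fully.

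Bcl2l1, the gene of BCL-XL, differed little from 0. Its 3 probes lay at 0.07, 0.44 and −0.06 on the Th17 and Th0 array and at 0.09, 0.26 and −0.14 on the Th1 and Th0 array, in the same probe order. The means were 0.15 ± 0.26 and 0.07 ± 0.20 (SD over probes) on these arrays, and the difference was 0.08 ± 0.10, which turned to −0.34 when each array was centred on its most repeated value. Both means were smaller than the spread between probes. Mcl1, which encodes a short-lived survival protein, had 1 probe at −0.06 on the Th17 and Th0 array and 0.20 on the Th1 and Th0 array. Its difference of −0.26 was smaller than the pooled probe spread, and it turned to 0.02 when the arrays were centred on control genes.

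Of the effectors, Bak1 was measured by 1 probe. It lay at −0.12 on the Th17 and Th0 array and at −0.42 (1.34-fold) on the Th1 and Th0 array. Both lay on the negative side, and both were smaller than the pooled probe spread of their array. Centring on the most repeated value turned both to the positive side, at 0.31 and 0.43.

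Among the BH3-only genes, Bcl2l11, which encodes BIM, lay on the positive side of the Th17 and Th0 array, opposite to Il17a. Its 2 probes lay there at 0.61 and 0.56, and at −0.01 and −0.35 on the Th1 and Th0 array. The probes are annotated to different Bcl2l11 transcripts and lay close together on the first of these arrays. The mean was 0.59 (1.5-fold) on the Th17 and Th0 array, where 92.1% of all genes were lower, and −0.18 on the Th1 and Th0 array. The difference was 0.77 ± 0.21 (1.70-fold, SD over 2 probes), positive for both probes and between 0.35 and 1.05 under the 3 other centrings. Centring on the most repeated value turned the −0.18 to 0.67. Bcl2l11 was thus the family gene furthest to the positive side on the Th17 and Th0 array and in the difference, where Bcl2a1a and Bcl2 lay on the negative side.

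Bbc3, which encodes PUMA, a target of p53, had probes at 0.16 and −0.33 on the Th17 and Th0 array and at −0.06 and −0.67 on the Th1 and Th0 array. The means were −0.09 ± 0.35 and −0.36 ± 0.43 (SD over probes) on these arrays, and on the Th17 and Th0 array the 2 probes lay on opposite sides of 0. The difference was 0.27 ± 0.08, positive for both probes, but −0.15 when each array was centred on its most repeated value. Bid, whose protein links death receptors to mitochondria once a caspase has cut it, had 1 probe, at −0.08 on the Th17 and Th0 array and −0.52 (1.43-fold) on the Th1 and Th0 array. Its difference was 0.44, below the pooled probe spread, and it stayed above 0 at 0.01 to 0.72 under the 3 other centrings.

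Bcl2l11 and Bbc3 are both known as targets of FoxO transcription factors, which growth factor and cytokine signals through AKT keep out of the nucleus. Their promoters are shown because they are the 2 family genes in which the FoxO letters TGTTTAC, or GTAAACA on the other strand, were found. Among all 32851 RefSeq promoter windows of 300 bases, 3.65% held them. Capitals mark the match, and the sequences are from RefSeq (GRCm38.p6), for the start of each gene that held it.
Bcl2l11, chr2:128125788-128126087, plus strand: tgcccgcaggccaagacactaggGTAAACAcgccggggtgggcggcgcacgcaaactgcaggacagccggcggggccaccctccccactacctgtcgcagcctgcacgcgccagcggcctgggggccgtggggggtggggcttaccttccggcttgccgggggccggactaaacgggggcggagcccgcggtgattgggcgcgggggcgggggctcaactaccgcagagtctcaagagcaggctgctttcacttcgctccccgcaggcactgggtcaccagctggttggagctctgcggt
Bbc3, chr7:16310011-16310310, plus strand: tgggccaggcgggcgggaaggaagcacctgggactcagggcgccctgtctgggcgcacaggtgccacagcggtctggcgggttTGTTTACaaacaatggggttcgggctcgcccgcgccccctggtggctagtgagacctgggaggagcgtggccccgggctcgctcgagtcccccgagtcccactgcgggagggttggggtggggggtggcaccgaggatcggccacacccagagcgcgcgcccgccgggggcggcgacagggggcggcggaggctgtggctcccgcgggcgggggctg
The search covered 14 windows of 9 family genes. These are not the 9 measured ones, since Bax was among them and Pmaip1 was not. Pmaip1 was left out of the search, so the match counts say nothing about it. The STAT letters TTCNNNGAA were found in 0 of these 14 and in 8.3% of all windows, so no match overlapped one of FoxO. A match is a description of letters and not of binding. The FoxO genes themselves lay at 0.02 (Foxo3) and −0.75 (Foxo1) on the Th17 and Th0 array, and at −0.15 (Foxo3) and −0.91 (Foxo1) on the Th1 and Th0 array. The 2 probes of Foxo1 differed widely on the Th17 and Th0 array, with an SD of 0.77.

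Pmaip1, which encodes NOXA, the partner that targets MCL-1 for degradation, was the family gene furthest to the negative side on both arrays. Its 3 probes lay at −1.09, −1.68 and −1.29 on the Th17 and Th0 array, and at −1.13, −0.78 and −0.68 on the Th1 and Th0 array, in the same probe order. All 6 values lay on the negative side, and 4 of them were past 2-fold. Il17a lay on that side of the Th17 and Th0 array, and Ifng on that side of the Th1 and Th0 array. The means were −1.35 ± 0.30 (2.55-fold) and −0.86 ± 0.24 (1.82-fold) on these arrays, with SDs over probes. Of all genes, 3.19% were lower on the Th17 and Th0 array and 9.26% on the Th1 and Th0 array. Leaving out 1 probe gave −1.48 to −1.19 on the Th17 and Th0 array. Centring on the most repeated value moved Pmaip1 to −0.93 on the Th17 and Th0 array, which ended the call, and to −0.015 on the Th1 and Th0 array. The difference of −0.49 ± 0.48 was no larger than the spread of its probes, and 1 of the 3 probes had a difference above 0.

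Pmaip1 was the 1 family gene past 2-fold on an array, and the genes of the lists described here that lay nearest to it over both arrays were the T cell adaptor gene Lat, the BCL-2 relative Bcl2l14, whose probes differed widely, and the T cell adhesion gene Cd2. Their distances in the plane of the 2 log2 ratios were 0.13, 0.18 and 0.19, among 194 genes compared. With 2 values per gene such nearness is common: 69 of all named genes lay as near as Cd2.

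**Figure D2:**
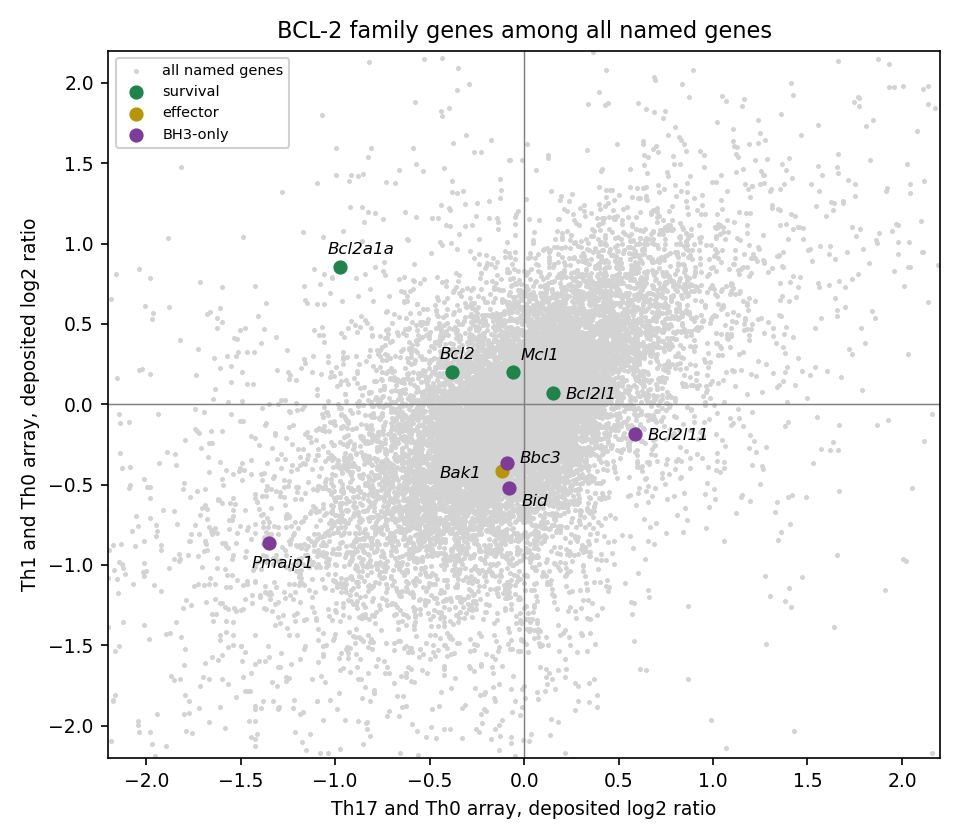
Deposited log2 ratio on the Th17 and Th0 array (horizontal) against the Th1 and Th0 array (vertical) for all named genes (grey) and 9 BCL-2 family genes (coloured by role), each at the mean over its probes. The axes end at 2.2, and 431 genes beyond that are not drawn. Bcl2a1a lies in the upper left at −0.97 and 0.86, Pmaip1 in the lower left at −1.35 and −0.86, and Bcl2l11 right of 0 at 0.59.

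Read by role, the 2 arrays differed in how the family fell. On the Th17 and Th0 array survival and death genes were mixed, with 3 of 4 survival genes and 4 of 5 measured death genes below 0. The survival genes ranged there from −0.97 to 0.15 and the death genes from −1.35 to 0.59. On the Th1 and Th0 array all 4 survival genes lay above all 5 measured death genes. The survival genes ranged there from 0.07 to 0.86 and the death genes from −0.86 to −0.18, and centring an array cannot change this order. With the sign of the ratio turned, all 4 survival genes lay below all 5 death genes. Whether the survival genes lie above 0 does depend on the centring, since centring on control genes turned Bcl2, Bcl2l1 and Mcl1 to −0.05, −0.18 and −0.06. The order holds for gene means and not for single probes, of which 1 of Bcl2l1 and 3 of Bcl2 lay below 0 and 1 of Bcl2l11 at −0.01. The narrowest gap, between Bcl2l1 and Bcl2l11, was smaller than the pooled probe spread of that array. The order is also one of these 4 survival and 5 death genes, and relatives outside the list need not keep it. The BH3-only gene Bmf lay at 0.54 ± 0.86 (SD over 2 probes) on the Th1 and Th0 array, above Bcl2, Bcl2l1 and Mcl1. Bad lay there at −0.10, below the survival genes. In the difference the survival genes had a median of −0.42 and the death genes one of 0.30. The roles overlapped there, with survival genes from −1.83 to 0.08 and death genes from −0.49 to 0.77. Both arrays are set against Th0 RNA, and the labels do not say whether it was 1 preparation.

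**Figure D3:**
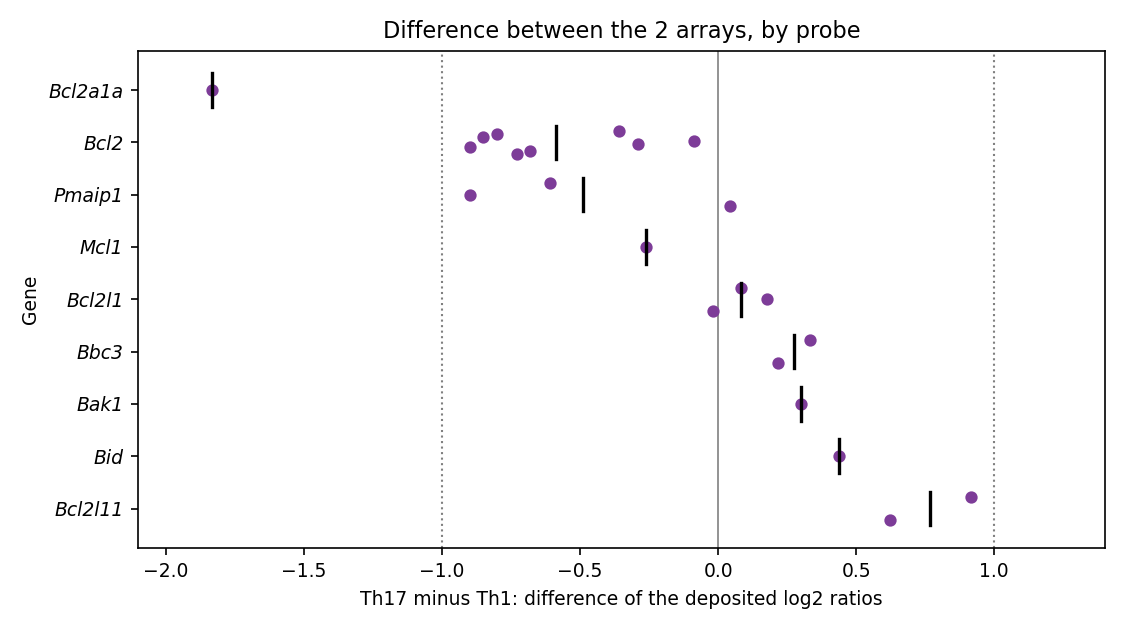
Difference of the deposited log2 ratios, Th17 minus Th1 (horizontal axis), for each probe (points) and the mean over probes (black bars) of 9 BCL-2 family genes, ordered by the mean from top to bottom. Dotted lines mark 2-fold. Bcl2a1a lies alone past 2-fold at −1.83, all 8 probes of Bcl2 lie below 0, and both probes of Bcl2l11 lie above 0.

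The wider BCL-2 family gave 16 measured genes of 18 listed. On the Th17 and Th0 array 0 were at least 2-fold positive and 1 negative. On the Th1 and Th0 array 1 was positive and 0 negative. The shares past 2-fold over all named genes were 8.42% and 10.2% on these arrays. The median of the 16 genes was −0.02 on the Th17 and Th0 array (range −1.22 to 0.93) and −0.14 on the Th1 and Th0 array (range −0.99 to 1.01). The genes past 2-fold on an array were Bcl2l14 at −1.22 ± 1.35 (SD over 2 probes that differed widely) on the Th17 and Th0 array, where its value on the Th1 and Th0 array was −0.99, and Bcl2l13 at 1.01 on the Th1 and Th0 array, with 0.93 on the Th17 and Th0 array. In the difference 1 of the 16 was past 2-fold, Bcl2a1c at −1.81, beside 8.14% of all named genes. Bmf, a further BH3-only gene, lay at −0.43 on the Th17 and Th0 array and 0.54 ± 0.86 (SD over 2 probes that differed widely) on the Th1 and Th0 array. Bad lay at 0.08 and −0.10 on these arrays.

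Downstream of the family, none of 12 genes of the mitochondrial death machinery was 2-fold apart on either array or in the difference. Over all named genes the shares were 8.42% on the Th17 and Th0 array, 10.2% on the Th1 and Th0 array and 8.14% in the difference. The median of the 12 genes was −0.05 on the Th17 and Th0 array and 0.34 on the Th1 and Th0 array. Of them, 10 had a negative difference (median −0.36). The control genes had a median of −0.02 on the Th17 and Th0 array and 0.25 on the Th1 and Th0 array, on the same side as these genes. In the difference 11 of 13 control genes (median −0.23) and 8060 of all 17501 named genes lay below 0. Cycs, the gene of cytochrome c, lay at 0.64 on the Th17 and Th0 array and 0.49 on the Th1 and Th0 array, and Vdac3, a channel of the outer mitochondrial membrane, at 0.64 and 0.97. Of 8 measured caspases, Casp1, which processes inflammatory cytokines, lay at 1.18 on the Th17 and Th0 array and 0.47 on the Th1 and Th0 array, and the executioner gene Casp6 at −0.82 and −1.33. The initiators Casp8 and Casp9 lay at 0.04 and 0.29 on the Th17 and Th0 array and at 0.16 and 0.29 on the Th1 and Th0 array. Inhibitor of apoptosis genes had 0 of 9 members 2-fold apart on either array, where 8.42% and 10.2% of all named genes were. Naip2 had a difference of −1.19.

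The death receptor list had 1 of 11 members at least 2-fold positive and 2 negative on the Th17 and Th0 array, and 0 past 2-fold on the Th1 and Th0 array. The shares over all named genes were 8.42% and 10.2% on these arrays. Fas, the death receptor that removes chronically stimulated T cells, lay at −1.63 on the Th17 and Th0 array and −0.77 on the Th1 and Th0 array. Fasl, its ligand, lay at 1.49 and −0.58, a difference of 2.07. Receptor and ligand thus lay on opposite sides of the Th17 and Th0 array. Tnfrsf1a, a receptor for tumour necrosis factor, lay at −1.01 and −0.10.

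Upstream, the p53 pathway had 1 of 15 members past 2-fold on the Th17 and Th0 array, Ccng1 at 1.17, and 0 on the Th1 and Th0 array, where Ccng1 lay at 0.53. Beside the counts of this and the next list, 8.42% and 10.2% of all named genes passed on these arrays. Gadd45a had a difference of −1.33. Of the 15 genes, 8 lay below 0 on the Th17 and Th0 array and 6 on the Th1 and Th0 array. Cdkn1a and Mdm2, standard p53 targets, lay at 0.23 and 0.56 on the Th17 and Th0 array and at 0.31 and 0.73 on the Th1 and Th0 array. Of 16 FoxO, PI3K and cytokine survival genes, 1 was at least 2-fold positive and 0 negative on the Th17 and Th0 array, and 1 positive and 2 negative on the Th1 and Th0 array. Il2rb, a receptor chain for the survival cytokines interleukin 2 and 15, lay at 1.65 on the Th17 and Th0 array and 0.91 on the Th1 and Th0 array. Il7r, whose signal maintains BCL-2 in resting T cells, lay at −0.79 and −1.29. The survival kinase genes Pim2 and Pim3 lay at 0.57 and 0.71 on the Th17 and Th0 array and at −1.23 and 1.57 on the Th1 and Th0 array, so Pim2 differed by 1.80.

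Regulators of MCL-1 turnover had 0 of 7 members past 2-fold on either array. The shares over all named genes were 8.42% on the Th17 and Th0 array and 10.2% on the Th1 and Th0 array. Gsk3b, a kinase that marks MCL-1 for degradation, lay at 0.83 and 0.58 on these arrays. Among 11 NF-kappaB genes, a pathway that induces Bcl2a1a and Bcl2l1, the inhibitor gene Nfkbia lay at −1.56 on the Th17 and Th0 array and −0.77 on the Th1 and Th0 array, and Nfkbiz at 1.19 and −0.60. The subunit genes Rel and Rela lay at 0.15 and −0.33 on the Th17 and Th0 array and at −0.02 and −0.04 on the Th1 and Th0 array. Relb and Nfkb2, also subunit genes, lay at −0.90 and −0.87 on the Th17 and Th0 array. On the Th1 and Th0 array they lay at −0.39 and −0.20. Of the 11 genes, 8 and 9 lay below 0 on these arrays, beside 9390 and 10040 of all 17501 named genes. In the integrated stress response, which can raise Pmaip1 and Bbc3, 1 of 10 members was at least 2-fold positive on the Th17 and Th0 array and 3 on the Th1 and Th0 array, with 0 negative on both. Of all named genes, 2.9% and 3.27% were at least 2-fold positive on these arrays. Hspa5, an endoplasmic reticulum chaperone gene, lay at 1.19 and 1.62, Chac1 at 0.95 and 1.47, and Xbp1 at −0.75 and 1.15 on these arrays. Of the 10 stress genes, 7 lay above 0 on the Th17 and Th0 array and 9 on the Th1 and Th0 array. Of all 17501 named genes, 8109 and 7461 did so on these arrays, and of 13 control genes 5 and 11. Any link of the stress genes to Pmaip1 was not tested.

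**Figure D4:**
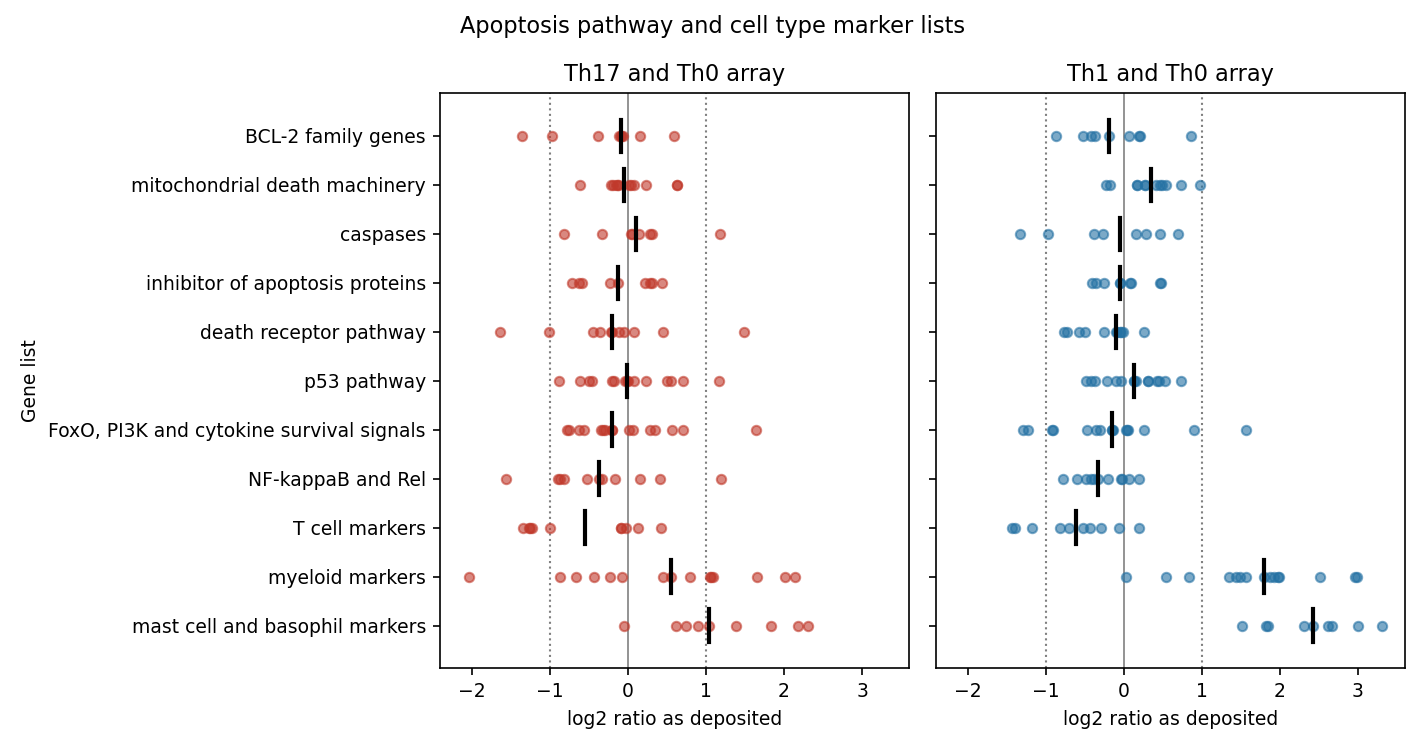
Deposited log2 ratio (horizontal axes) of each measured gene (points) of the BCL-2 family and of 10 further lists (rows), on the Th17 and Th0 array (left) and the Th1 and Th0 array (right). Black bars are medians and dotted lines mark 2-fold. The median of the 9 family genes lies at −0.09 and −0.18, while mast cell and basophil markers have medians of 1.04 and 2.43.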

How the data were processed

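Two-colour arrays, 1 per comparison, were analysed from the value table as deposited, taken to hold the authors' log2 ratios. That unit was inferred from the values, which lie on both sides of 0. How the arrays were scanned, background-corrected, normalized and centred, and the order of the channels, are not given in the sources used here. Per the labels, column-purified RNA was amplified and coupled to dye with amino allyl reagents.

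Probes were named from the platform annotation, updated through gene numbers to a current gene list (GRCm38.p6, for names alone). Of 36547 probes, 26926 carried 1 gene (26774 matched by number, 0 symbols changed), 203 several and 9418 none here. Probes of a gene were averaged (pandas 2.3.3). A gene was called at a log2 size of at least 1 (2-fold). No test was possible. Th17 minus Th1 is the difference of the 2 log2 ratios. A search for ratios of small whole numbers, which very dim spots leave, found a weaker channel of at most 5 units for 0 of 22 family probes on either array. Promoter copies were aligned with Biopython 1.88. Calls and the search were checked on simulated data. The simulated probe noise was well below the probe spread found here, so this checked the code and not how reliable the calls are. The genes, lists and naming rule (all members; of other lists mainly those past 2-fold; markers as counts) were chosen with earlier results of these data known. Other genes named, such as Bad, Bmf, Cdkn1a, Mdm2, Casp8, Casp9, Rel, Rela, Relb, Nfkb2 and the FoxO genes, were chosen for their roles after the values were seen.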

Additional observations from a re-analysis of the deposited data

Results flagged for a closer look

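Bcl2a1a, Bcl2l11, Bcl2 and Mcl1 lay on opposite sides of 0 on the Th17 and Th0 array and the Th1 and Th0 array. The differences, Th17 minus Th1, were −1.83 for Bcl2a1a, 0.77 for Bcl2l11, −0.59 for Bcl2 and −0.26 for Mcl1. With 1 array each, none of these differences was tested. The opposite sides were kept by Bcl2a1a under all 3 other centrings of the arrays, and lost by Mcl1, Bcl2 and Bcl2l11 under at least 1 of them.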

How the results depend on the processing

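The counts of family genes at least 2-fold apart were small, 1 on the Th17 and Th0 array, 0 on the Th1 and Th0 array and 1 in the difference, so single genes near the threshold moved them. Lowering the threshold to 1.5-fold gave 3, 2 and 3 genes on these comparisons, where 20.9%, 26% and 20.5% of all genes passed. Centring on control genes, which subtracts −0.02 from the Th17 and Th0 array and 0.25 from the Th1 and Th0 array, gave 1 gene on the Th1 and Th0 array (Pmaip1 at −1.12) and 2 in the difference (Bcl2l11 at 1.05 besides Bcl2a1a). Of all genes, 13.6% and 10.3% passed there. Centring on the most repeated value, which subtracts −0.43 and −0.85 from the Th17 and Th0 array and the Th1 and Th0 array, gave 3 on the Th1 and Th0 array and 2 in the difference (Bcl2 at −1.01 besides Bcl2a1a), and moved the median on the Th1 and Th0 array to 0.67. With this centring 31.5% of all genes passed on the Th1 and Th0 array and 11.6% in the difference. Under it the 1 gene past 2-fold on the Th17 and Th0 array was Bcl2l11 at 1.01, and Pmaip1 lay at −0.93. The probe with the largest absolute value gave 1 on the Th1 and Th0 array and 2 in the difference, where Bcl2 at −1.51 sets different probes against each other. The shares of all genes in these 2 comparisons were then 14.6% and 12.1%. With the sign turned, Pmaip1 on the Th17 and Th0 array read 1.35 and the difference of Bcl2a1a 1.83. Centring also moved the share of all calls on the negative side. On the Th17 and Th0 array it was 65.5% as deposited and 25.4% with the most repeated value at 0. On the Th1 and Th0 array it was 67.9% as deposited, 56.5% with the array median, 86.6% with control genes and 5.39% with the most repeated value at 0, and in the difference 44.4%, 51.1%, 22.2% and 81.8%. Leaving out each probe in turn, an alternative chosen after seeing the data, kept the call of Pmaip1 on the Th17 and Th0 array. It could not be run for Bcl2a1a, which has 1 probe. No paired analysis was possible because each comparison had 1 array. Signal over background could not be read from ratios.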
